A study of Homo sapiens with 12 samples.

Results

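The comparison described here asked whether the response of HL-60 cells to daunorubicin (DNR) differed when the SUMOylation inhibitor ML-792 was present. HL-60 is an established human line of acute myeloid leukemia (AML), so that the 12 libraries describe 1 line at 1 time. Cells received the DMSO vehicle, 1 µM DNR, 0.5 µM ML-792, or ML-792 and DNR at those same doses (ML-792+DNR), and polyadenylated RNA was taken after 3 h from 3 independent experiments. The value computed for each gene is the interaction: the log2 effect of DNR with ML-792 (ML-792+DNR minus ML-792) minus the log2 effect of DNR without it (DNR minus DMSO). All 12 of the 12 libraries enter it. A negative value of a gene that DNR raised means a smaller fold induction with ML-792, and a positive value of a gene that DNR lowered means a smaller fold decrease. Levels are given in CPM, the reads of a gene scaled to a common library size, and were compared between libraries of 1 gene, not between genes, whose lengths differ. In RNA from whole cultures, a response of fewer cells and less RNA per cell cannot be told apart.

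SUMO is a small protein that is attached to lysines of other proteins, among them many transcription factors and chromatin regulators, through an E1 activating enzyme, an E2 conjugating enzyme and E3 ligases. ML-792 blocks the E1 enzyme, so that existing conjugates are lost as proteases remove SUMO. DNR intercalates into DNA and traps topoisomerase II, and in myeloid cells it turns on genes of inflammation, stress and growth arrest. Much of that inflammatory program is run by NF-kB, whose subunits are held in the cytoplasm by IkB inhibitors. Once released, they turn on chemokines, survival genes and their own inhibitors, which close the response again.

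Reads in genes ranged from 28.6 M to 46.5 M per library, and within groups r of log2 CPM across genes was 0.991 to 0.997. The promyelocyte markers summed to 10600 to 13600 CPM in every library, chiefly MPO, whereas ELANE, another granule protease gene of promyelocytes, stood at 0.324 to 4.03 CPM. Of 7 erythroid markers 3 were at 0 in all libraries, as were 2 of 8 lymphocyte and 3 of 9 stromal and epithelial markers, including CD3E, MS4A1, HBB and EPCAM. Other members had reads, among them VIM (141 to 185 CPM), NKG7 (6.96 to 12.7 CPM) and KRT8 (1.55 to 3.07 CPM). The sums were 0.712 to 1.45 CPM for the erythroid, 7.35 to 13.7 CPM for the lymphocyte and 143 to 187 CPM for the stromal and epithelial list. The share of reads from mitochondrially encoded transcripts was 4.01% to 6.37% in the replicate 1 libraries and 2.49% to 3.48% in the others. Its part in the results was not tested, and counts without replicate 1 are given beside the NF-kB genes.

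No gene passed the threshold for the interaction in the main edgeR fit, which used no block for the replicate number. Among 13696 genes tested with edgeR, 0 (0%) had a Benjamini-Hochberg adjusted p below 0.05, with or without a change of at least 2-fold, and the smallest adjusted p was 0.226, that of IER3. At an unadjusted p below 0.05 there were 493 genes (3.6%), 293 with a negative value (2.14%) and 200 with a positive one (1.46%). Leaving out single libraries moved the negative count from 202 (without replicate 1 of ML-792) to 536 (without replicate 2 of ML-792+DNR) and the positive count from 139 (without replicate 3 of DMSO) to 531 (without replicate 3 of ML-792). With limma voom 0 genes passed and 512 had an unadjusted p below 0.05. With a block for the replicate number, edgeR called 1 gene, TNFAIP2, and 1077 genes (7.86%) had an unadjusted p below 0.05. The errors and edgeR p-values of genes given below are from the fit without this block. DESeq2 called 17 genes at an adjusted p below 0.05, or 0.144% of the 11837 to which it gave an adjusted p. Of these, 14 had a negative value and 3 a positive one. By contrast, edgeR called 956 genes (6.98%) for DNR against DMSO and 868 (6.34%) for ML-792+DNR against ML-792, at an adjusted p below 0.05 and 2-fold. These 2 effects are the parts of the interaction and are therefore given side by side only.

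The precision of the interaction was limited by its 4 groups of 3. Its median standard error over all genes was 0.197 on the log2 scale, against 0.14 for DNR minus DMSO. For 10057 genes (73.4%) the whole 95% interval lay within a 2-fold change in either direction, and of the 9613 genes that reached 5 CPM in at least 1 group this held for 9093 (94.6%). The median interaction of all genes was 0.00346, close to 0. In the plot of the DNR effect without against with ML-792, most genes lay around the line of equal effects, and the named genes at the far ends had effects nearer to 0 with ML-792. The 12 genes of each direction with the smallest p are described below. They were ranked by p and did not pass the adjusted threshold of this edgeR fit. Effects nearer to 0 with ML-792, and DNR and ML-792+DNR libraries that do not overlap, follow in part from that choice. The same holds for list members named by their values, and no share over all genes is given beside them.

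**Figure D1:**
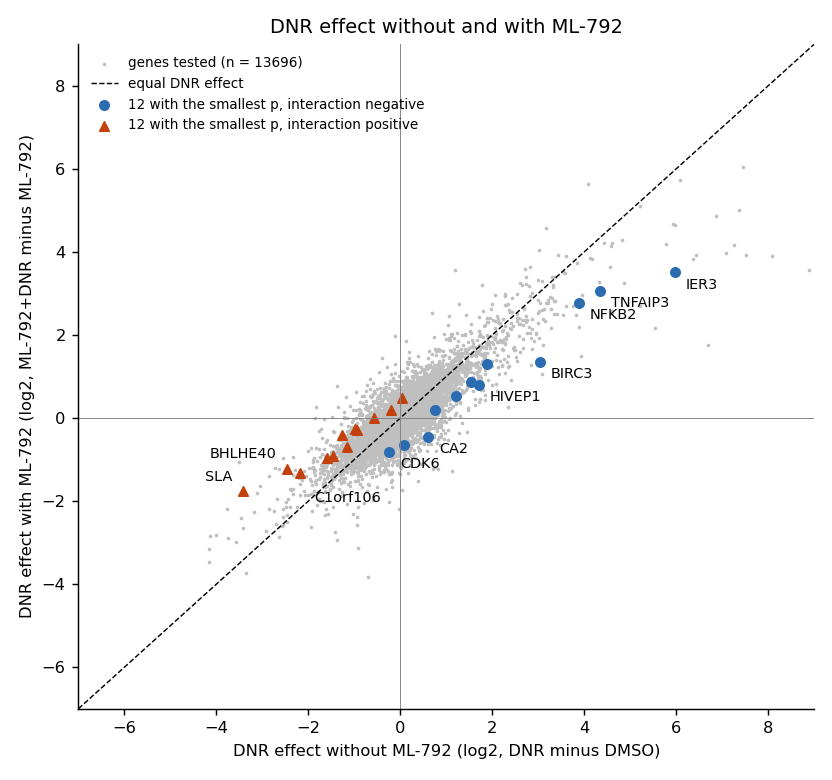
Each point is 1 of 13696 genes, with the log2 effect of DNR without ML-792 on the x axis and with ML-792 on the y axis, and the dashed line marks equal effects. Blue circles (negative interaction, smallest p) lie below the line, from CDK6 to IER3 at 5.97 without and 3.50 with ML-792, and red triangles (positive interaction) lie above it, down to SLA at −3.41 and −1.77.

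Among the NF-kB target genes, the median effect of DNR was smaller with ML-792, although edgeR without a replicate block called no single target for the interaction. Of 27 tested targets, 22 had a negative interaction and 12 an unadjusted p below 0.05, all 12 negative, against 2.14% of all genes tested. The median interaction of the targets was −0.596, and the median DNR effect was 2.1 without and 1.35 with ML-792. With each library left out in turn, the median stayed between −0.671 and −0.483 and the number at p below 0.05 between 8 and 13; it was 8 without replicate 1 of ML-792 and also without replicate 1 of ML-792+DNR. With replicates 2 and 3 only, 7 targets had a p below 0.05 and the median was −0.544. The list was chosen with earlier results of these data known, so that its direction is no independent evidence.

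TNFAIP3 encodes A20, an enzyme that trims ubiquitin chains and ends NF-kB signalling (chr6:138188351-138204451 on GRCh37, plus strand). Its level was 3.78, 2.69 and 3.95 CPM in the DMSO libraries, 59.7, 74.8 and 77.3 CPM with DNR, 4.91, 4.56 and 5.44 CPM with ML-792, and 31.1, 42.2 and 50.9 CPM with both. Every DNR library stood above every ML-792+DNR library, and the groups without DNR were low. DNR raised it 20.2-fold without ML-792 (adjusted p = 2.13e-08) and 8.31-fold with it (adjusted p = 6.12e-07). The interaction was −1.28 ± 0.26 (SE) with an adjusted p of 0.544 in edgeR and 0.00356 in DESeq2.

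BIRC3, which encodes the survival factor and ubiquitin ligase cIAP2 (chr11:102188215-102210134, plus strand), had a larger value of the same direction. It was at 1.60, 1.64 and 2.06 CPM with DMSO, 11.0, 15.2 and 17.4 CPM with DNR, 2.92, 2.57 and 3.06 CPM with ML-792 and 4.74, 8.10 and 8.95 CPM with both. The DNR and ML-792+DNR groups did not overlap, and the ML-792 libraries lay above the DMSO libraries. The induction was 8.20-fold without and 2.55-fold with ML-792, and the interaction was −1.68 ± 0.34, with an adjusted p of 0.544 in edgeR and 0.00356 in DESeq2. IER3, the target with the smallest p, differed from these genes in that ML-792 alone raised it, and it is described further below.

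TNFAIP2, an inducible gene of endothelial and myeloid cells (chr14:103587813-103603776), was at 62.5, 62.2 and 93.7 CPM with DNR and at 23.4, 22.5 and 47.5 CPM with both drugs, against 8.63 to 12.5 CPM with DMSO and 10.5 to 15.4 CPM with ML-792. Its interaction was −1.56 ± 0.38, with an unadjusted p of 0.00123 and an adjusted p of 0.845 in edgeR and 0.022 in DESeq2. The remaining targets at p below 0.05 were CXCL3 (−1.25), TNF (−1.18), CXCL2 (−1.05), CXCL8 (−0.90), SDC4 (−0.83), CYLD (−0.69), CD83 (−0.60) and SOD2 (−0.26). These 8 genes code for chemokines and a cytokine, a cell surface proteoglycan, a deubiquitinase of the pathway, a maturation antigen and a mitochondrial superoxide dismutase. Among the 5 targets with a positive value, IRF1, an interferon regulatory factor, had 0.20 ± 0.14 (unadjusted p of 0.18), with DNR effects of 1.27 without and 1.48 with ML-792.

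The subunits and inhibitors of NF-kB had the same direction. Of 16 tested, 13 had a negative interaction and 7 an unadjusted p below 0.05, all 7 negative, against 2.14% of all genes tested. The median was −0.228 (−0.313 to −0.17 with a library left out, with 5 to 7 genes at p below 0.05). NFKB2, the precursor of the subunit p52 (chr10:104153867-104162281, plus strand), was at 4.40, 4.58 and 5.43 CPM with DMSO, 70.5, 63.7 and 77.3 CPM with DNR, 3.70, 5.52 and 5.77 CPM with ML-792 and 35.4, 26.7 and 40.0 CPM with both. The groups treated with DNR alone and with both did not overlap, while the ML-792 libraries overlapped the DMSO libraries. Its induction was 14.7-fold without and 6.82-fold with ML-792. The interaction of −1.11 ± 0.25 had an adjusted p of 0.715 in edgeR and 0.0191 in DESeq2.

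Of the other subunits, RELB, REL and NFKB1 followed at smaller sizes, whereas RELA, described below, had a value of 0.07. RELB, the usual partner of p52, reached 27.1, 27.2 and 30.0 CPM with DNR and 16.8, 12.7 and 18.4 CPM with both, and its interaction was −0.76 ± 0.26 (unadjusted p of 0.0108). REL, the c-Rel subunit, reached 47.6, 53.7 and 54.3 CPM with DNR and 22, 32.1 and 32.2 CPM with both, for an interaction of −0.59 ± 0.18 (unadjusted p of 0.0067). Neither gene had overlapping DNR and ML-792+DNR libraries. NFKB1, the precursor of p50, had a small DNR effect of 0.36 and an interaction of −0.29 ± 0.13 (unadjusted p of 0.0457).

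The inhibitors varied more. NFKBIA, which encodes IkBα, was at 127, 194 and 157 CPM with DNR and 107, 146 and 135 CPM with both, so that these groups overlapped, and its interaction was −0.53 ± 0.21 (unadjusted p of 0.0244). For NFKBIE (IkBε) the interaction was −0.42 ± 0.15 (unadjusted p of 0.0123). BCL3, an atypical IkB protein that acts in the nucleus, was nearly silent without DNR: 1 read in the 3 DMSO libraries together and 7 in those with ML-792, against 319 with DNR and 102 with both. Its interaction of −4.20 ± 1.23 rests on those few reads and gives no usable size. NFKBIZ, another atypical IkB protein, had DNR effects of 2.06 without and 2.08 with ML-792 and an interaction of 0.02 ± 0.26.

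All 7 members at p below 0.05 had a DNR effect with an adjusted p below 0.05 without ML-792, an effect that is itself a part of the interaction. So did NFKBID, NFKBIB, NFKBIZ and IKBKB, whose interactions had no p below 0.05. RELA, the p65 subunit, had an interaction of 0.07 ± 0.10, and the kinase subunits CHUK, IKBKB and IKBKG, which release NF-kB by marking the IkB proteins, had −0.05, 0.03 and −0.13. Their unadjusted p-values were 0.524 to 0.812, and their DNR effects without ML-792 were −0.26 to 0.21 on the log2 scale.

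The 6 promoter stretches below belong to genes of this response and hold a kappaB site, the letters to which NF-kB binds, in the 250 bases before the start of transcription. They come from RefSeq on GRCh38.p14 and are written 5′ to 3′ on the strand of the gene, with every match to the kappaB motif in capitals, on either strand and with overlapping matches joined.
TNFAIP3 (chr6:137867172-137867233, plus strand): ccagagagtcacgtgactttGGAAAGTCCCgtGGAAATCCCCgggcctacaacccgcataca
BIRC3 (chr11:102317265-102317378, plus strand): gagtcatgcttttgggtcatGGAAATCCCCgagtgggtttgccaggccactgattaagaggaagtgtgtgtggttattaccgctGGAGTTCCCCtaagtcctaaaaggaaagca
CXCL3 (chr4:74038738-74038788, minus strand): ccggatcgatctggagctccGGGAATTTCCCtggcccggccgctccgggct
NFKBIA (chr14:35404801-35404850, minus strand): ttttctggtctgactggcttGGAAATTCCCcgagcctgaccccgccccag
IFIH1 (chr2:162318731-162318780, minus strand): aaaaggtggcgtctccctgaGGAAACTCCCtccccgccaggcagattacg
IRF1 (chr5:132490794-132490843, minus strand): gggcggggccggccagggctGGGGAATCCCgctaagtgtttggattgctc
TNFAIP3, BIRC3 and CXCL3 each have 2 matches, which in CXCL3 overlap. The first 5 genes had a negative interaction, and IRF1 carries a match beside a value of 0.20.

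A match of these letters is a description and no evidence of binding. RefSeq windows from 250 bases before to 50 bases after a start were at hand for 24 of the 27 tested NF-kB targets, and 13 of those 24 (54.2%) held the motif in at least 1 window, against 3619 of all 27305 genes with a window (13.3%). Some genes have several starts and thus several windows. Targets were listed as targets of NF-kB to begin with, so that this share says nothing of ML-792. Of the 13696 genes tested only 9585 had a window, too few for a share over them to serve as the background. Within the list, the 13 targets with the motif had a median interaction of −0.596 and 7 genes at p below 0.05, and the 11 without it had −0.258 and 4 genes. The AP-1 motif TGANTCA was in windows of 3 of the 24 targets (12.5%, against 9.37% of all genes) and the CArG box in 0 (1.6% of all genes). NFKB2 has 3 listed starts with matches before them, and for IER3 no window was at hand. The motifs were searched after the interaction values were known.

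**Figure D2:**
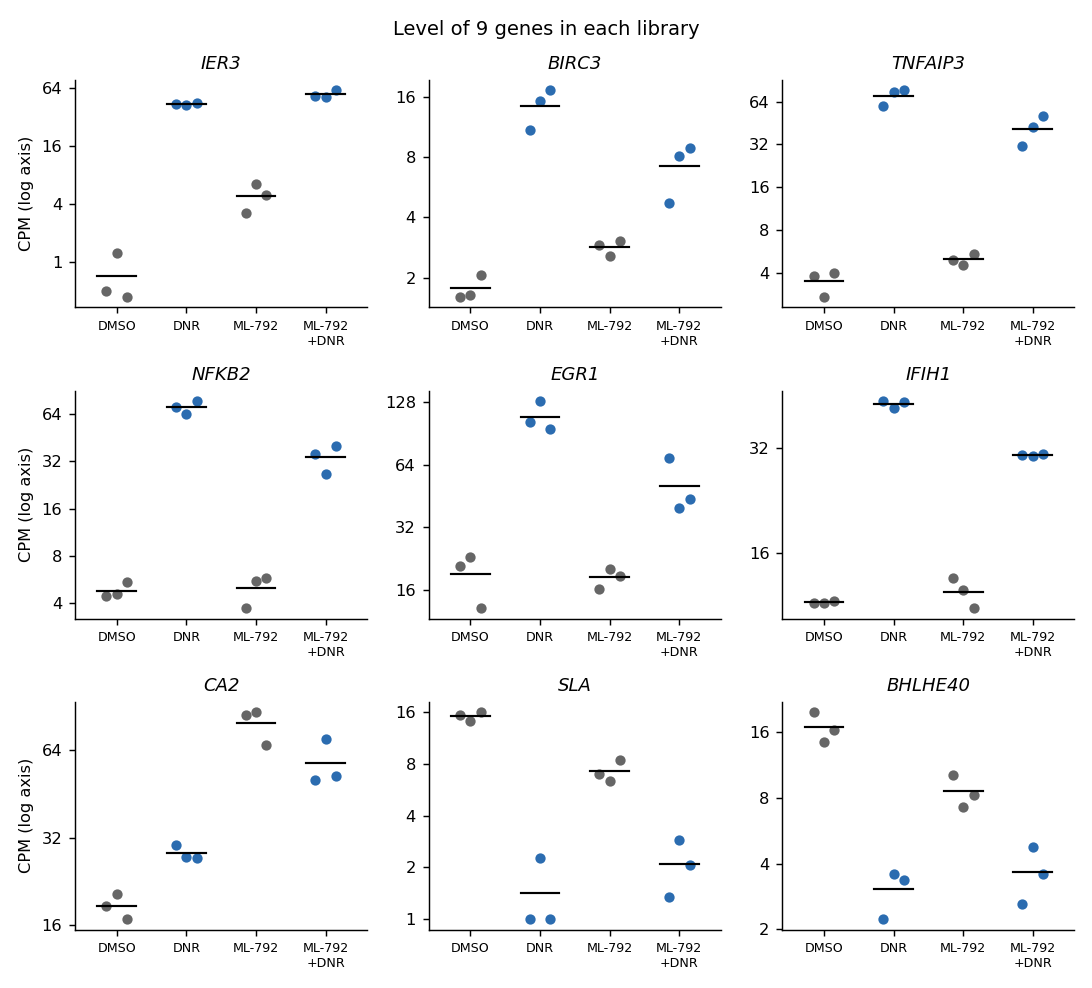
Level of 9 genes in CPM on log axes, with 1 point per library (grey without DNR, blue with DNR) and a bar at the mean of 3. For BIRC3, TNFAIP3, NFKB2, EGR1 and IFIH1 the ML-792+DNR points lie below the DNR points, for IER3 and CA2 the ML-792 points lie above the DMSO points, and for SLA and BHLHE40 they lie below them.

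For IER3, the gene with the smallest p, the smaller fold came with a higher starting level and not with a lower level under both drugs. IER3 is an immediate early gene linked to cell survival (chr6:30710976-30712325, minus strand). It was at 0.497, 1.24 and 0.433 CPM with DMSO, 43.6, 43.0 and 44.1 CPM with DNR, 3.26, 6.41 and 4.94 CPM with ML-792 and 53.1, 51.5 and 60.6 CPM with both. All ML-792 libraries exceeded all DMSO libraries, and all ML-792+DNR libraries exceeded all DNR libraries. ML-792 alone raised it by 2.81 on the log2 scale (adjusted p = 0.00137), so that the DNR induction was 62.8-fold from the lower start and 11.3-fold from the higher one. The interaction was −2.47 ± 0.38, with an adjusted p of 0.226 in edgeR and 4.16e-08 in DESeq2. In CPM, DNR added 42.9 without and 50.2 with ML-792, a difference of 7.36 ± 2.99 (SE) in the opposite direction.

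Against DMSO, ML-792 alone called 11 genes (0.0803%), and IER3, CA2 and PTPRE were the 3 of them among the 24 genes ranked by p. CA2, carbonic anhydrase II, was at 18.7, 20.5 and 16.8 CPM with DMSO and 84.6, 86.2 and 66.7 CPM with ML-792. With DNR it was at 30.3, 27.4 and 27.2 CPM and with both at 50.5, 69.9 and 52.3 CPM, where only the 2 groups with ML-792 overlapped. DNR thus raised it 1.52-fold from the DMSO level (adjusted p = 0.00506) and lowered it to 0.728 of the ML-792 level (adjusted p = 0.0174), an interaction of −1.06 ± 0.19 with an adjusted p of 0.544 in edgeR and 0.0018 in DESeq2. CLEC5A, a myeloid surface receptor, also rose with ML-792 (1.37) and had an interaction of −0.72 ± 0.26 (unadjusted p of 0.0141). MIR17HG, the host transcript of the miR-17-92 cluster, rose by 3.09 with ML-792 alone and by 2.89 in the presence of DNR, so that its interaction of −0.20 ± 0.24 (unadjusted p of 0.429) was within its error.

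Chemokines and cytokines leaned the same way, with many members at few reads. Of 20 tested members, 5 had an unadjusted p below 0.05, all negative, against 2.14% of all genes tested. Among these 5, CXCL3, TNF, CXCL2 and CXCL8 are also NF-kB targets and were counted there, so that only CCL5 adds to that count. The median of the list was −0.363, which moved between −0.571 (without replicate 2 of DNR) and −0.134 (without replicate 2 of ML-792) with a library left out. In 6 such omissions 3 genes in place of 5 had a p below 0.05 with a negative value, namely replicate 3 of DMSO, replicates 2 and 3 of DNR, replicates 1 and 3 of ML-792 and replicate 1 of ML-792+DNR. CXCL3, a neutrophil attractant (chr4:74902306-74904524), went from 0.432, 0.588 and 0.433 CPM to 29.1, 26.9 and 31.6 CPM with DNR, and from 0.525, 0.567 and 0.559 CPM to 16.1, 10.0 and 16.4 CPM when ML-792 was there. Reads shared with CXCL2 and other close relatives make its level uncertain. CCL5, a lymphocyte attractant, was at 68.4, 66.0 and 69.6 CPM with DNR and 38.3, 41.6 and 42.9 CPM with both, with an interaction of −0.71 ± 0.19 (unadjusted p of 0.00221). Both genes had separate DNR and ML-792+DNR groups.

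CXCL10 and ICAM1 show where counts at the start set the limit. CXCL10, an interferon-inducible chemokine, had 6 reads in the DMSO libraries together and 2 in the ML-792 libraries, against 919 with DNR and 153 with both. Its level under both drugs was lower than under DNR by 2.67 on the log2 scale (adjusted p = 0.0127), but its interaction was −1.41 ± 2.1 (unadjusted p of 0.514), with a 95% interval from −5.93 to 3.11. ICAM1, an adhesion molecule for leukocytes, was at 6.51, 4.06 and 10.4 CPM with DNR and 1.99, 0.935 and 2.93 CPM with both, and its interaction was −1.62 ± 0.78 (unadjusted p of 0.057). In all, ML-792+DNR against DNR called 27 genes (0.197%), a comparison that uses the same libraries with both drugs and is not independent of the interaction.

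Of 19 AP-1 and EGR genes, the transcription factors of the immediate early response, 14 had a negative interaction, 3 of them and 2 positive ones at p below 0.05 (2.14% and 1.46% of all genes). Among the 9 that DNR raised on average, 8 were negative with a median of −0.441. Over all 19 the median was −0.055 (−0.192 to −0.0394 with a library left out, with 2 to 4 negative and 1 to 2 positive genes at p below 0.05). EGR1, a zinc finger activator (chr5:137801168-137804992), was at 20.9, 23.1 and 13.1 CPM with DMSO, 102, 129 and 95.2 CPM with DNR, 16.2, 20.3 and 18.6 CPM with ML-792 and 69.1, 39.6 and 43.6 CPM with both. The DNR group lay above the ML-792+DNR group, and the interaction was −1.05 ± 0.31 (unadjusted p of 0.00503). FOS went from 8.57-fold induction without to 3.39-fold with ML-792 (−1.34 ± 0.36, unadjusted p of 0.00252). Its mean start was 1.35 CPM with DMSO and 2.39 CPM with ML-792 (adjusted p = 0.551). Its mean level was 11.6 CPM with DNR and 8.13 CPM with both (adjusted p = 0.376). FOSB (−0.44 ± 0.41, unadjusted p of 0.299) and JUN (−0.52 ± 0.41, unadjusted p of 0.221) had standard errors near the size of the value. JUN was induced 28.1-fold without and 19.6-fold with ML-792.

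EGR2 and EGR3, near relatives of EGR1, went opposite ways at low levels. EGR2 was at 2.36, 3.94 and 1.65 CPM with DNR and 0.883, 0.312 and 0.138 CPM with both, for −2.02 ± 0.84 (unadjusted p of 0.0306). EGR3 reached 5.45, 4.84 and 3.49 CPM with DNR and 4.87, 4.08 and 4.20 CPM with both, whereas ML-792 alone left it at 0.0525, 0.0895 and 0.118 CPM, below 0.302, 0.248 and 0.255 CPM with DMSO. Its interaction of 1.55 ± 0.45 (unadjusted p of 0.00403) therefore came with a lower start and overlapping end levels. Among 34 other immediate early genes, 5 had a negative and 1 a positive interaction at p below 0.05, beside 2.14% and 1.46% of all genes. With a library left out these counts ran from 3 to 7 and from 0 to 3. The negative count was 3 without replicate 1 or 3 of DMSO, and the positive count was 3 without replicate 1 of DNR. PPP1R15A, a stress-induced phosphatase subunit, was at 56.3, 46.1 and 58.5 CPM with DNR and 33.2, 20.1 and 33.6 CPM with both, for −0.86 ± 0.24 (unadjusted p of 0.00302).

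Outside the NF-kB lists, 5 of the 12 genes with a negative value had the same form, a DNR induction that was smaller with ML-792 from a similar start. HIVEP1, a zinc finger protein that binds kappaB-like sites (chr6:12008995-12165232), was at 23.6, 19.1 and 24.9 CPM with DNR and 10.9, 10.0 and 12.5 CPM with both, from 6.69, 7.21 and 6.83 CPM with DMSO and 5.91, 6.71 and 6.65 CPM with ML-792. The group with DNR alone stood apart from the 3 others, and the interaction was −0.91 ± 0.18. IFIH1, the RNA sensor MDA5 (chr2:163123584-163175194), was at 43.5, 41.8 and 43.2 CPM with DNR and at 30.6, 30.4 and 30.8 CPM with both, 2 groups with little spread, for −0.59 ± 0.12. Starts were 11.6, 11.5 and 11.7 CPM with DMSO and 13.6, 12.6 and 11.1 CPM with ML-792.

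SH2B3, an adaptor that dampens cytokine receptor signalling, rose with DNR to 95.4, 89.4 and 96.0 CPM (1.67-fold, adjusted p = 2.4e-05) but stood at 64.3, 58.1 and 65.6 CPM with both drugs, where its DNR effect of 1.13-fold did not pass (adjusted p = 0.102). Its interaction was −0.56 ± 0.11. ANKRD33B had −0.70 ± 0.14 and DUSP10, a phosphatase of the kinases JNK and p38, −0.67 ± 0.15, with DNR levels of 55.9 to 59.9 CPM and 35.6 to 38.4 CPM and levels under both drugs of 28.2 to 35.9 CPM and 25.2 to 29.1 CPM. In none of these 5 genes, which were chosen by their interaction p, did the DNR and ML-792+DNR libraries overlap. Adjusted p-values were 0.544 to 0.715 in edgeR, and all 5 were below 0.05 in DESeq2.

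LTN1 and CDK6 had another form. DNR lowered them with ML-792, to 0.641 (adjusted p = 0.00155) and 0.571 (adjusted p = 4.33e-05) of the ML-792 level, whereas its effects without ML-792 were 1.06-fold (adjusted p = 0.628) and 0.843-fold (adjusted p = 0.054). LTN1, a ubiquitin ligase that clears stalled nascent chains from ribosomes, was at 42.4 to 51.9 CPM in the 9 libraries of the DMSO, DNR and ML-792 groups and at 24.7, 35.4 and 29.3 CPM with both, for −0.73 ± 0.17. CDK6, a kinase of the entry into S phase, was raised by ML-792 from 86.2, 89.9 and 89.5 CPM to 143, 134 and 123 CPM and stood at 73.8, 76.3 and 73.7 CPM with DNR and 66.8, 86.8 and 75 CPM with both. Here the 2 groups with DNR overlapped, and the interaction of −0.56 ± 0.13 came with the higher start. The lists of growth arrest and cell death genes were balanced, with 14 negative of 28 (median −0.00115) and 17 negative of 33 (median −0.0115). At p below 0.05 they held 2 negative and 1 positive gene and 1 negative gene, against 2.14% negative and 1.46% positive of all genes. The cell cycle inhibitor gene CDKN2B had −0.98 ± 0.24, the BH3-only death gene PMAIP1 had −0.41 ± 0.10, with 229.8, 209.5 and 219.9 CPM with DNR and 168, 158 and 145 CPM with both, and SESN3 had −0.36 ± 0.15. The positive one, the stress-responsive kinase gene PLK3, had 0.53.

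**Figure D3:**
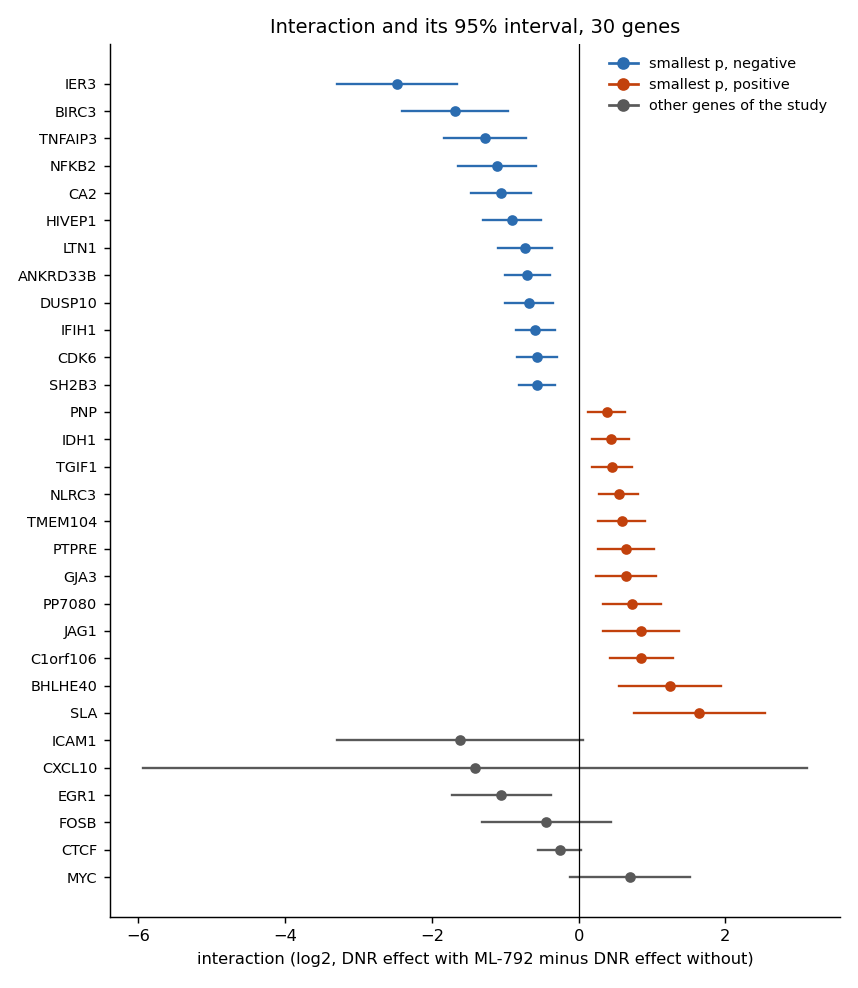
Interaction on the log2 scale (x axis) with its 95% interval for 30 genes (y axis): 12 negative (blue) and 12 positive (red) genes ranked by p, and 6 other genes of the study (grey). The intervals of the ranked genes leave out 0 by construction, from −3.28 to −1.65 for IER3 to 0.76 to 2.53 for SLA, while that of CXCL10 spans −5.93 to 3.11.

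Among the 12 genes with a positive value and the smallest p, DNR lowered 10 without ML-792 at an adjusted p below 0.05, and their folds were nearer to 1 with it. The DNR effect without ML-792 is a part of the interaction by which these genes were chosen, so that this direction follows in part from the choice. SLA, an adaptor that limits antigen receptor signalling, was at 15.4, 14.1 and 15.9 CPM with DMSO, 1.01, 2.26 and 0.998 CPM with DNR, 7.01, 6.38 and 8.38 CPM with ML-792 and 1.34, 2.90 and 2.07 CPM with both. The end levels overlapped, and the ML-792 libraries all lay below the DMSO libraries. Its interaction was 1.65 ± 0.41 (adjusted p = 0.878 in edgeR, 0.0373 in DESeq2). BHLHE40, a transcriptional repressor of the circadian and stress response (chr3:5021122-5027008), had the same layout, with 19.7, 14.4 and 16.3 CPM with DMSO, 2.22, 3.57 and 3.37 CPM with DNR, 10.2, 7.28 and 8.27 CPM with ML-792 and 2.62, 4.77 and 3.58 CPM with both, for 1.24 ± 0.32.

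NLRC3, C1orf106 and TMEM104 likewise had a lower start with ML-792 and overlapping levels in the 2 groups with DNR. NLRC3, an inhibitory member of the NLR family, was at 47.8, 43.3 and 43.0 CPM with DMSO, 29.0, 30.9 and 31.4 CPM with ML-792, 15.4, 16.4 and 17.0 CPM with DNR and 15.5, 17.0 and 15.9 CPM with both (0.54 ± 0.12). C1orf106 had 0.85 ± 0.20, and DESeq2 gave it an adjusted p of 0.0474 and NLRC3 one of 0.022. TMEM104 was at 49.9 to 61.2 CPM with DMSO and at 34.2 to 43.2 CPM in the 9 other libraries (0.59 ± 0.15). PTPRE, a receptor-type tyrosine phosphatase, fell by 1.34 on the log2 scale with ML-792 itself (adjusted p = 0.000262), and its interaction was 0.64 ± 0.18.

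In a further 4 genes the starts were similar and the level with both drugs exceeded that with DNR alone. TGIF1, a homeobox repressor of TGF-β signalling, was at 19.0, 19.7 and 18.2 CPM with DNR and 26.8, 25.4 and 25.4 CPM with both, from 37.6 to 45.5 CPM without DNR (0.45 ± 0.13). The noncoding RNA PP7080 was at 5.91, 6.11 and 6.61 CPM with DNR and 9.29, 9.68 and 10.5 CPM with both (0.73 ± 0.19), and GJA3, a connexin gene, at 7.06, 8.62 and 6.14 CPM and 10.5, 12.5 and 9.82 CPM (0.65 ± 0.19). IDH1, the cytosolic isocitrate dehydrogenase, was unlike them in that DNR did not lower it: 48.2 to 55.5 CPM were measured in the 9 libraries of the 3 other groups and 77.9, 67.1 and 77.5 CPM with both (0.43 ± 0.11). JAG1, a Notch ligand, had 0.85 ± 0.24 with both a lower start and overlapping ends, and PNP, a purine salvage enzyme, 0.38 ± 0.12.

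The myeloid transcription factors, most of which DNR lowered, leaned to positive values. Of 22 tested, 17 had a positive interaction, 5 of them and 2 negative ones at p below 0.05 (1.46% and 2.14% of all genes), and the median was 0.167 (0.133 to 0.199 with a library left out). HHEX, a homeobox factor of early blood cells, was at 11.6, 20.5 and 14.7 CPM with DNR and 21.2, 33.8 and 23.4 CPM with both, from 40.8 to 43.1 CPM without DNR (0.76 ± 0.26, unadjusted p of 0.0119). CEBPA, a driver of granulocyte fate, was at 51.4, 58.7 and 71.1 CPM with DNR and 71.7, 92.9 and 98.2 CPM with both (0.56 ± 0.21, unadjusted p of 0.021). ETV6, a repressor of the ETS family, went the other way at −0.39 ± 0.11 (unadjusted p of 0.00299). Without replicate 1 of DNR, the number of factors at p below 0.05 with a positive value was 1 in place of 5. It was 2 without replicate 3 of DMSO and 3 without replicate 1 of DMSO, replicate 3 of DNR, replicates 1 and 2 of ML-792 or replicate 3 of ML-792+DNR.

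Receptors for chemoattractants with leukocyte adaptors had a median of 0.212, with 20 of 23 positive, 3 positive at p below 0.05 and 2 negative (1.46% and 2.14% of all genes). The 3 were SLA, PTPRE and CCR1, a chemokine receptor (1.00 ± 0.44), and their number ran from 2 to 6 with a library left out, 6 without replicate 3 of ML-792 or replicate 1 of ML-792+DNR. Beside CLEC5A, CD69 was the negative one, an early activation antigen that DNR raised, with 70.9, 131 and 102 CPM with DNR and 31.6, 64.6 and 55.9 CPM with both, for −1.10 ± 0.34 (unadjusted p of 0.00639). MYC, a growth-promoting transcription factor whose gene is amplified in this line, was at 519.8, 725 and 584 CPM with DMSO, 1045, 1507 and 1296 CPM with ML-792, 81.5, 146 and 117 CPM with DNR and 251, 584 and 344 CPM with both. The DNR group was the lowest and the ML-792 group the highest, and DNR lowered MYC to 0.188 of its level without ML-792 and to 0.306 with it. The interaction of 0.70 ± 0.38 (unadjusted p of 0.0856) did not pass, and on the CPM scale it was −395.2 ± 178, in the opposite direction. CTCF, the insulator protein, had −0.26 ± 0.14 (unadjusted p of 0.0799).

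**Figure D4:**
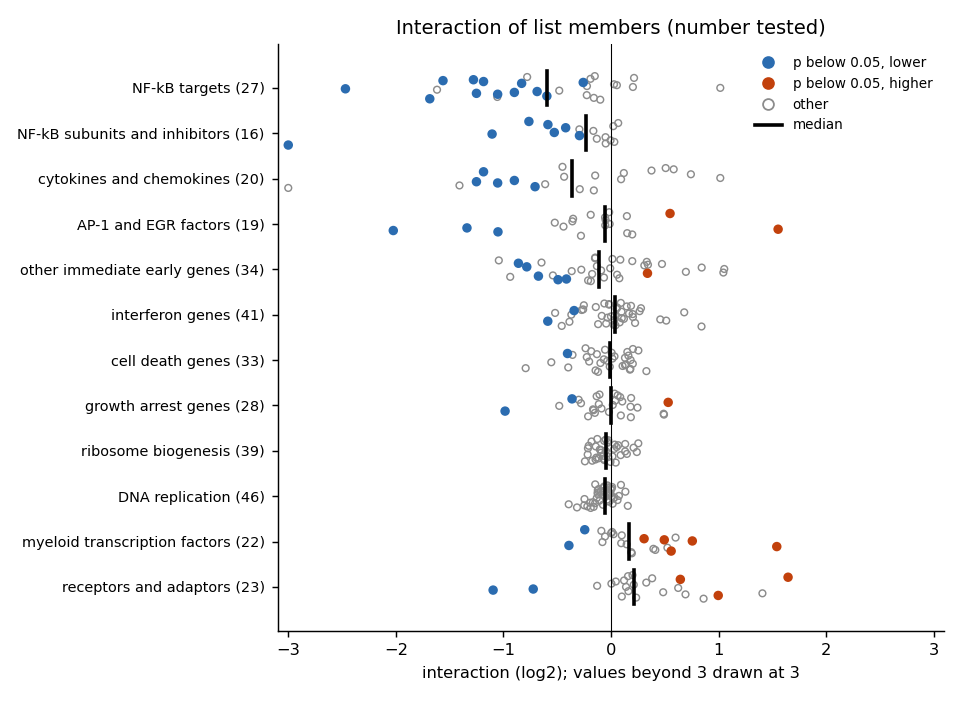
Interaction on the log2 scale (x axis) of each tested member of 12 gene lists (y axis, number tested in brackets), filled where the unadjusted p is below 0.05, with a black bar at the median. The NF-kB targets lie furthest to the left (median −0.596) and the receptors and adaptors furthest to the right (0.212), and BCL3 and CCL4, beyond −3, are drawn at −3.

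Several large groups showed no gene at p below 0.05 in either direction. They were 39 ribosome biogenesis genes (median −0.0484), 46 DNA replication genes (−0.0572), 62 cytosolic ribosomal protein genes (0.0648) and 25 cholesterol synthesis genes (0.0108). Their signs were not all balanced, with 35 of 46 DNA replication and 26 of 39 ribosome biogenesis genes negative (49.2% of all genes). Positive values were in 48 of 62 ribosomal protein and 14 of 25 cholesterol genes. In other lists, 32 of 40 mitosis and 22 of 29 hypoxia and glycolysis genes were positive, and 21 of 27 replication-dependent histones negative. A one-sided sign count was thus not particular to the NF-kB and myeloid lists. Of 41 interferon regulators and stimulated genes, 2 had a negative value at p below 0.05, IFIH1 and OAS3 (2.14% of all genes), and the median was 0.036. The 27 genes of the SUMO pathway had a median of −0.0542, with 2 negative genes at p below 0.05, MORC3 and RNF111 (2.14% of all genes). The 13 mitochondrially encoded transcripts all had negative values with a median of −0.245 and 1 at p below 0.05 (2.14% of all genes). However, that median ran from −0.765 without replicate 1 of ML-792+DNR to 0.23 without replicate 1 of DNR, the 2 libraries with the highest mitochondrial shares. It was also positive without replicate 1 of ML-792 (0.0358) or replicate 2 of ML-792+DNR (0.0212).

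To ask how far the pattern of smaller folds reached, genes were grouped by the mean DNR effect over both settings, whose weights are orthogonal to those of the interaction. DNR raised 568 genes on average (4.15%) and lowered 379 (2.77%), at an adjusted p below 0.05 and 2-fold. Of the raised genes 61.8% had a negative interaction, against 49.2% of all genes, with a median of −0.133, and 43 were negative and 6 positive at p below 0.05. Over all genes 2.14% were negative and 1.46% positive at that p. Of the lowered genes 64.1% had a positive interaction, with a median of 0.145, and 29 were positive and 12 negative at p below 0.05. These medians turned sign without single libraries. The raised genes had 0.117 without replicate 2 of ML-792+DNR, 0.0341 without replicate 1 of DNR and 0.0413 without replicate 3 of ML-792, and the lowered genes −0.0335 without replicate 2 of ML-792+DNR.

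Most raised genes were scarce, and the share of negative values was larger among the 188 that reached 5 CPM in a group. A raised gene could reach this minimum through the DNR group only or the ML-792+DNR group only. Unlike the mean DNR effect, the minimum is therefore not independent of the interaction. Of the 188 genes 75% were negative, 35 were negative and 1 positive at p below 0.05, and the median DNR effect was 1.575 without and 1.322 with ML-792. With the genes chosen anew, 127 of 215 were negative without replicate 3 of ML-792, with 31 negative and 12 positive at p below 0.05, and 120 of 218 without replicate 2 of ML-792+DNR, with 33 and 5. Without replicate 1 of DNR 110 of 171 were negative, with 34 and 2. By size, the raised genes of 2 to 4-fold had a median interaction of −0.0785, those of 4 to 8-fold −0.258 and those over 8-fold −0.721, with 80% negative among these 60. The 2 upper classes were scarce, with a median highest group level of 1.249 and 1.436 CPM. Such genes could enter the tests through the DNR group alone, so that this order is not independent of the interaction. No range with a library left out is given for these classes.

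The 188 genes were not uniform. The limit of the 5 CPM minimum holds for each part of them, and the lists were chosen with earlier results of these data known. The split is thus a description. Over all genes tested, 2.14% were negative at p below 0.05. The 22 that belong to the NF-kB or cytokine lists had a median of −0.864, with 20 negative and 16 at p below 0.05. The 18 other members of the AP-1, EGR and immediate early lists had −0.316, with 4 at p below 0.05. The 148 genes of none of these lists had −0.134, with 105 negative and 15 negative at p below 0.05. With a library left out and the genes chosen anew, the first median stayed between −0.959 and −0.787 and the second between −0.441 and −0.188, while the third ran from −0.294 to 0.0256 and was positive without replicate 2 of ML-792+DNR.

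**Figure D5:**
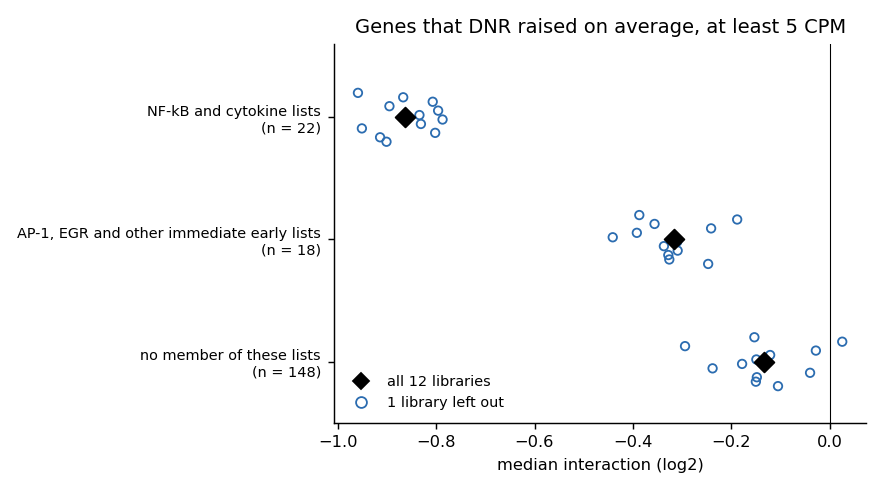
Median interaction on the log2 scale (x axis) of the genes that DNR raised on average at 5 CPM or more, split by list membership (y axis). The 5 CPM minimum is not independent of the interaction. Diamonds are the values with all 12 libraries (−0.864, −0.316 and −0.134) and open circles those with 1 library left out and the genes chosen anew, of which 1 crosses 0 in the lowest line, at 0.0256.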

How the data were processed

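Per the submitters' processing notes and the study's methods, reads were aligned to hg19 by TopHat2 (2.1.1, running Bowtie2 2.3.5.1), after which HTSeq 0.11.1 tallied them by gene. The values used here are the raw counts that the authors deposited. How the tally treated strand was not stated, which leaves overlapping and antisense genes uncertain. The deposited normalized table and the authors' table of fold changes and adjusted p-values were not used.

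The 5 HTSeq counter lines were left out. Of 42157 genes, 24018 had a read and 13696 passed edgeR's filterByExpr (minimum count 10, minimum total 15). The quasi-likelihood test of edgeR 4.0.16 (R 4.3.3) with TMM factors used all 12 libraries and 1 mean per group. Each p is from that test unless another tool is named, errors of the interaction are SE, and p-values measure the spread between 3 experiments per group. CPM values use TMM-scaled library sizes. The named genes are the 12 of each direction with the smallest p at 5 CPM or more in a group, since none was called, and the study's 8 genes. Others were named from the lists or the ML-792 calls after their values were seen. Members and lists were chosen with earlier results of these data known. The fit was tested on simulated data. Alternatives were DESeq2 1.42.0, limma 3.58.1 voom, other scalings and filters, a replicate block and leaving out each library; replicates 2 and 3 only and the minimum of 5 CPM for gene classes were added after seeing the data. Gene positions are from GENCODE on GRCh37. A check on a further marker gene of the line is not reported here.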

Additional observations from a re-analysis of the deposited data

How the results depend on the processing

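The direction of the interaction was the same under the alternatives run for the 30 named genes, apart from 3. In CPM, IER3 turned to 7.358 and MYC to −395.2, and CXCL10, with almost no reads without DNR, ran from −5.298 to 1.25 with a library left out. Calls at an adjusted p below 0.05 and 2-fold depended on the tool and on the filter. DESeq2 called 6 genes with a negative and 1 with a positive value, and edgeR without a count filter 9 and 2. Leaving out a library gave 0 to 1 negative calls, the 1 being IER3, without replicate 2 of DMSO (adjusted p = 0.0113) or replicate 1 of ML-792 (0.022). Other scalings, a mean of 1 CPM and limma voom gave 0. The cause of these differences was not tested. The median interaction of genes that DNR raised ran from −0.2923 to 0.1174 with a library left out, and was −0.2053 with replicates 2 and 3 only and −0.3408 at a mean DNR effect of 4-fold. That of lowered genes ran from −0.03353 to 0.239, and was 0.491 at 4-fold.

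Deviations from group means correlated at r = 0.07223 to 0.5867 between libraries of equal number and −0.498 to 0.0913 between others, and all 12 libraries correlated best with their own number. Since 2 of 18 pairs lay under 0.1, the numbers were not taken as a pairing. With a replicate block, 1 gene with a negative value was called, TNFAIP2 (adjusted p = 0.0113), and 1077 genes in place of 493 had an unadjusted p below 0.05.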
